A study of Mus musculus with 12 samples.

Results

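The promoters of long intergenic noncoding RNAs (lincRNAs) were examined for H3K4me3 in the embryonic mouse forebrain. A lincRNA promoter was the 2 kb either side of the annotated 5′ end of a gene typed as lincRNA in GENCODE M21, on the GRCm38 build. A lincRNA whose 5′ end lay within 2 kb of a transcription start site (TSS) of a protein-coding gene was left out. This rule kept 5371 of the 5854 annotated lincRNAs, out of 55450 annotated gene 5′ ends in all, and left out 483. H3K4me3 had been profiled by CUT&Tag, in which an antibody brings a transposase to chromatin that carries the mark, in the medial, lateral and caudal ganglionic eminences (MGE, LGE and CGE) and the somatosensory cortex (CTX). The tissue was microdissected from wild-type C57BL/6J embryos at E12.5 (embryonic day), and each tissue had 2 biological replicates. The 12 libraries were 4 for CGE, 3 each for MGE and CTX and 2 for LGE. The replicates had been merged before peaks were called, so 1 list of broad peaks stood for each tissue and no difference between tissues could be set against a spread between replicates.

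The labels' protocol mentions E14.5 too, without tying that age to a library. It further says that nuclei of the 4 tissues were pooled in equal numbers, although each library is labelled with 1 tissue, and the lists were therefore checked at marker genes. Nkx2-1, which specifies MGE identity, had peaks over 1839, 1114, 1920 and 0 bases around its 5′ end in MGE, LGE, CGE and CTX. Lhx6 and Lhx8, which act in MGE-derived neurons, likewise had peaks in the 3 eminences and none in CTX. Nr2f2, a CGE marker, had a peak at its annotated 5′ end in CGE alone, with 2329 bases. At its most covered TSS, however, it had 1963, 4001, 4001 and 1424 bases in MGE, LGE, CGE and CTX. The CGE markers Nr2f1 and Prox1 were marked in all 4 lists. Nr2f1 had 1385, 2925, 2131 and 1371 bases in that order, and Prox1 1520, 2055, 2078 and 1361. The cortical gene Emx1 had 495, 2371, 1965 and 1920 bases in the same order, Neurog2 340, 2123, 2143 and 2169, Eomes 445, 2427, 2006 and 1699, Emx2 1359, 2815, 2869 and 2692, and Tbr1 0, 242, 309 and 557. Of 7 markers of the eminences in general, 6 were marked in every list, CTX included. The 3 LGE markers Isl1, Ebf1 and Gsx2 were marked in all 4 lists as well. Each of these marked genes had its fewest bases in CTX, but the presence of a peak did not set CTX apart. The MGE markers thus set CTX apart from the eminences but were marked in LGE and CGE too. The 5 cortical genes were lowest in MGE and marked in LGE and CGE as in CTX. Gad1 and Neurod6, markers of inhibitory and cortical neurons, had no peak at the annotated 5′ end in any list. Of 5 microglial genes none was marked, and of 5 endothelial genes Cldn5 and Kdr were marked in all 4 lists. Of 5 mesenchymal genes 5 were marked in MGE, CGE and CTX and 4 in LGE.

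A lincRNA is a long, usually spliced transcript that encodes no known protein and lies between protein-coding genes. H3K4me3 is deposited around the first nucleosomes of transcribed genes, above all where the promoter is rich in CG dinucleotides, and it also marks poised promoters. In the developing forebrain, lincRNAs include hosts of neural microRNAs, imprinted transcripts and transcripts that lie beside transcription factor genes.

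The sequences of 6 promoters carry the patterns described below. They were read from GRCm38, 250 bases before to 50 bases from the annotated 5′ end on, so that base 251 is the first base of the gene, and CG dinucleotides are in capitals. Meg3 (chr12:109540751-109541050, plus strand) was marked in the 3 eminences and not in CTX, Gm29683 (chr7:70337803-70338102, minus strand) and 3110006O06Rik (chr13:78171380-78171679, plus strand) in MGE and CGE, and Paupar (chr2:105661294-105661593, minus strand) in CGE and CTX. C130071C03Rik (chr13:83721131-83721430, plus strand) was marked in all 4 lists, and D230030E09Rik (chr12:118530144-118530443, minus strand) in CTX alone.
Meg3: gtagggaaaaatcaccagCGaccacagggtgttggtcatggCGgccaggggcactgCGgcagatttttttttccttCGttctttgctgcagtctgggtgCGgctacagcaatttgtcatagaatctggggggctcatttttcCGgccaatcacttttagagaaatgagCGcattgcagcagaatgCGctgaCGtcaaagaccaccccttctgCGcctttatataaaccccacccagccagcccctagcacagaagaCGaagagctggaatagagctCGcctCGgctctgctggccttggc
Gm29683: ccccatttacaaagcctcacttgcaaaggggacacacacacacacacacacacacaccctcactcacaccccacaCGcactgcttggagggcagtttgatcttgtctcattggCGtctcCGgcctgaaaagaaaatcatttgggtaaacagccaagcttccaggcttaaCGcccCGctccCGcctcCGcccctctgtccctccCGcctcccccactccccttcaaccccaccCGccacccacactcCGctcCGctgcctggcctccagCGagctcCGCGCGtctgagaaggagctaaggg
3110006O06Rik: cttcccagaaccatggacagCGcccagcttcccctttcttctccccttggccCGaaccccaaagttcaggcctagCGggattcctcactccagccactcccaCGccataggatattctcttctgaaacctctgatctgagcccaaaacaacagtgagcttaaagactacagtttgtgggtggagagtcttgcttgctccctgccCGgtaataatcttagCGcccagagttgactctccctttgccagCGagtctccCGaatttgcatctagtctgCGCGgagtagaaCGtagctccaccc
Paupar: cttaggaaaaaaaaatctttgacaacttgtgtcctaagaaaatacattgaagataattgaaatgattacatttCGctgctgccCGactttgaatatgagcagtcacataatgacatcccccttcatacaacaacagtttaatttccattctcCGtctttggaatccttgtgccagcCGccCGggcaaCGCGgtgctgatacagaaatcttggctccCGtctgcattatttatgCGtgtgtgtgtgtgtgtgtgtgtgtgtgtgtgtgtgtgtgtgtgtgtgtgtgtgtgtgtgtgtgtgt
C130071C03Rik: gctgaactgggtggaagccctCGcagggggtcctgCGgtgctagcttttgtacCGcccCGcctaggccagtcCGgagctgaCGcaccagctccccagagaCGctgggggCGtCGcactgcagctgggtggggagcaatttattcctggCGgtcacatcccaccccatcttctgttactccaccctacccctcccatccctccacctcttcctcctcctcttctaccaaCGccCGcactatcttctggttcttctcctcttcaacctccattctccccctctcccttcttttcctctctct
D230030E09Rik: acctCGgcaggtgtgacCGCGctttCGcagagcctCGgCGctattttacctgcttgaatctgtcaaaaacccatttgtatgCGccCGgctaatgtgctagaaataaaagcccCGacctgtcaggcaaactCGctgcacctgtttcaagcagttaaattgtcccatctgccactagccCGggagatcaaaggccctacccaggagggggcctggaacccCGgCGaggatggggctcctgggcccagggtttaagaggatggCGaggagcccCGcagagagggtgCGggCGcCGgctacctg
C130071C03Rik, marked in all 4 lists, had 12 CG dinucleotides in these 300 bases. D230030E09Rik had the most of the 6, with 18. Meg3 had 13 and the letters TATAAA starting 30 bases before the 5′ end, and the Paupar window ends in a run of TG repeats.

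A lincRNA promoter was called marked in a list where at least 1 base of it lay under a peak. The MGE list marked 498 of the 5371 lincRNA promoters, which is 9.27% (Wilson 95% interval 8.53 to 10.1%), against 30.4% of all annotated gene 5′ ends. The LGE list marked 406, or 7.56% (6.88 to 8.3%), against 30.2% of all. In CGE 414 were marked, or 7.71% (7.02 to 8.45%), against 30.4%, and in CTX 432, or 8.04% (7.35 to 8.8%), against 29.8%. The share was therefore well below that over all annotated 5′ ends in each list. The intervals cover counting error only, and the same promoters were scored in every list, so they do not test the lists against each other. The order of the 4 lists also depended on short peaks. With peaks under 243 bp left out of every list, a minimum chosen after seeing the data, the shares were 6.98%, 7.56%, 7.71% and 6.35% in MGE, LGE, CGE and CTX. In dissected tissue, fewer cells carrying the mark and less of the mark per cell cannot be told apart. The lists hold no read counts, so no detection limit could be set, and a missing peak does not show that a promoter lacked H3K4me3. By the study's methods the H3K4me3 libraries of the tissues were sequenced to unequal depths, with the most reads for CGE and the fewest for MGE, and the part of depth in the counts of peaks was not tested.

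Other gene types were placed beside the lincRNAs, the noncoding ones held to the same 2 kb distance from protein-coding TSSs. Antisense RNAs gave shares near those of lincRNAs, with 9.74% of 1694 in MGE and 8.21% in CTX. Of 424 genes typed as processed transcripts 27.4% were marked in MGE and 23.6% in CTX. Processed pseudogenes, which are mostly unexpressed copies of other genes, gave the lowest shares, from 1.24% of 9635 in LGE to 1.77% in MGE. The lincRNA shares thus stood above those of pseudogenes and below those of processed transcripts in all 4 lists. Of 21951 protein-coding 5′ ends, the MGE, LGE, CGE and CTX lists marked 58.5, 58.9, 59.3 and 58.0%. The lincRNAs that the distance rule left out were marked even more often, in 74.7% to 75.4% of 483. At these a peak cannot be assigned to the lincRNA or to the protein-coding gene. At the edge of the rule, Gm45436 and 2210039B01Rik, 2001 and 2086 bp from a protein-coding TSS, were kept and had no peak. 9330158H04Rik and Gm16188, 1996 and 1975 bp away, were left out and had peaks in all 4 lists.

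**Figure D1:**
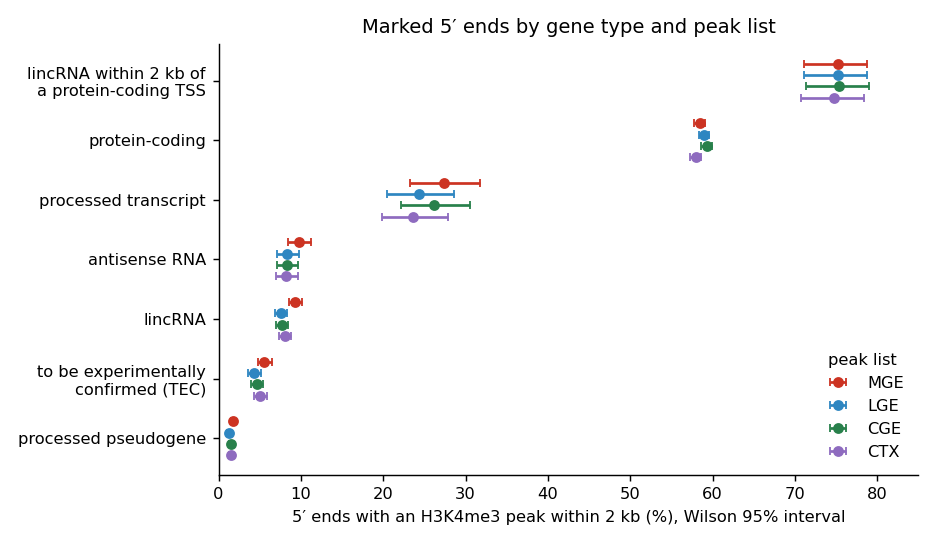
Share of 5′ ends with an H3K4me3 peak within 2 kb (x axis, %) for 7 gene types (y axis) in the 4 peak lists (colours), with Wilson 95% intervals as bars; noncoding types other than the top row lie more than 2 kb from protein-coding TSSs. The lincRNA points lie between 7.56% and 9.27%, next to antisense RNAs and far left of protein-coding genes at 58.0% to 59.3%.

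The peaks gathered at the annotated 5′ ends. In CGE a peak covered the 5′ end itself at 4.84% of the 5371 lincRNAs, against 0.912% at 1 kb upstream and 1.79% at 1 kb downstream. The MGE list covered 4.06% of the 5′ ends, LGE 4.25% and CTX 3.69%. At 2 kb the share was lower, at 0.503% to 0.726% of lincRNAs upstream and 0.596% to 0.801% downstream. It was higher again farther upstream, with 1.34% in LGE and 1.45% in CGE at position −3400 bp. The distance rule keeps protein-coding TSSs out of the 2 kb on either side but not out of positions beyond. It therefore shapes these flanking shares, and its part in them was not tested. At protein-coding genes the same positions gave 49.4% to 53.0% at the 5′ end. Among marked lincRNA promoters, a peak reached over the 5′ end in 43.8% of the 498 of MGE, 56.2% of the 406 of LGE, 62.8% of the 414 of CGE and 45.8% of the 432 of CTX. More of them had most of their marked bases downstream than upstream, with 286 against 211 for MGE, 257 against 149 for LGE, 249 against 165 for CGE and 249 against 183 for CTX. A peak that also covered a protein-coding TSS farther than 2 kb away was found at 9, 22, 24 and 11 lincRNA promoters in MGE, LGE, CGE and CTX. Several lincRNAs lie close to each other: between 49 and 65 marked promoters per list shared a peak with another lincRNA promoter, and the 5371 regions fall into 5170 separate stretches.

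**Figure D2:**
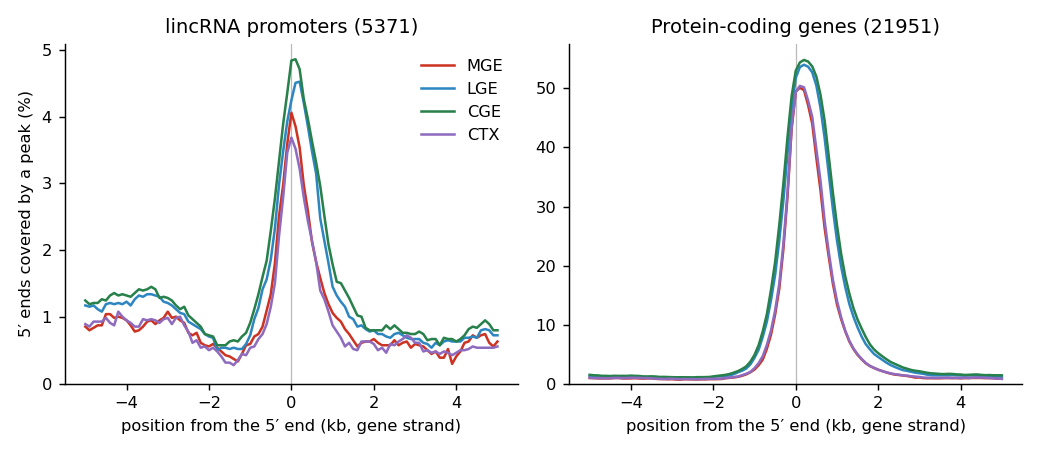
Share of 5′ ends covered by a peak (y axis, %) by position from the 5′ end on the gene strand (x axis, kb), every 100 bp, for lincRNAs (left) and protein-coding genes (right, different y scale) in the 4 lists. The lincRNA curves peak within 200 bp of the 5′ end, at 3.69% for CTX, 4.06% for MGE, 4.52% for LGE and 4.86% for CGE.

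Peaks at lincRNA promoters had lower median widths and fold enrichments than peaks at protein-coding 5′ ends of the same list. The 509 MGE peaks at lincRNA promoters had a median width of 478 bp, with quartiles of 226 and 813 bp, against a median of 923 bp at protein-coding 5′ ends. For LGE the medians were 920 and 1298 bp, for CGE 1077.5 and 1383 bp, and for CTX 510 and 966 bp. The direction was the same in all 4 lists. Over all peaks the medians were 563, 1168, 1240 and 701 bp in MGE, LGE, CGE and CTX, so wider peaks in LGE and CGE than in MGE and CTX were general to the lists. The median fold enrichment over the background estimated by the peak caller was 4.27 at lincRNA promoters and 6.1 at protein-coding 5′ ends in MGE. It was 4.74 against 6.17 in LGE, 4.53 against 6.56 in CGE and 4.52 against 6.32 in CTX. Of the 509, 387, 392 and 448 peaks at lincRNA promoters in MGE, LGE, CGE and CTX, 6, 34, 47 and 5 were 2000 bp wide or more. Over whole lists these were 520 of 25339, 1916 of 17284, 2414 of 17752 and 627 of 21442 peaks. Leaving out peaks that also cover a protein-coding TSS gave medians of 468, 900, 1045.5 and 499 bp in the same order.

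A peak in any list was found at 631 lincRNA promoters, or 11.7% (10.9 to 12.6%). All 4 lists marked 296 of the 5371, or 5.51%, against 28.1% of all annotated 5′ ends. Exactly 1 list marked 173, or 3.22%, against 2.06% of all. The 93 marked in 2 lists and the 69 marked in 3 made up the rest. Of the marked lincRNA promoters, 46.9% were marked in all 4 lists and 27.4% in 1, whereas of the marked protein-coding 5′ ends 91.2% were marked in all 4 and 3.3% in 1. MGE alone accounted for 89 and CTX alone for 59, against 13 for LGE and 12 for CGE. Among pairs, MGE with CTX gave 32 and LGE with CGE 30, and the other 4 pairs gave 4 to 16. Of the 69 missing from 1 list, 35 lacked a CTX peak, 14 a CGE peak, 12 an LGE peak and 8 an MGE peak. Protein-coding 5′ ends marked in 1 list numbered 159 for MGE, 49 for LGE, 106 for CGE and 130 for CTX. These were 0.724, 0.223, 0.483 and 0.592% of them, against 1.66, 0.242, 0.223 and 1.1% of lincRNA promoters. Among protein-coding pairs, LGE with CGE gave 145 and MGE with CTX 54. Of the 452 protein-coding 5′ ends missing from 1 list, 234 lacked a CTX peak and 162 an MGE peak. Among sets of 1 list, MGE alone and CTX alone were thus the most frequent there as well. Among sets of 3 lists, the lack of CTX was the most frequent there too. The lack of MGE came next at protein-coding 5′ ends but was the rarest of these sets at lincRNA promoters.

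**Figure D3:**
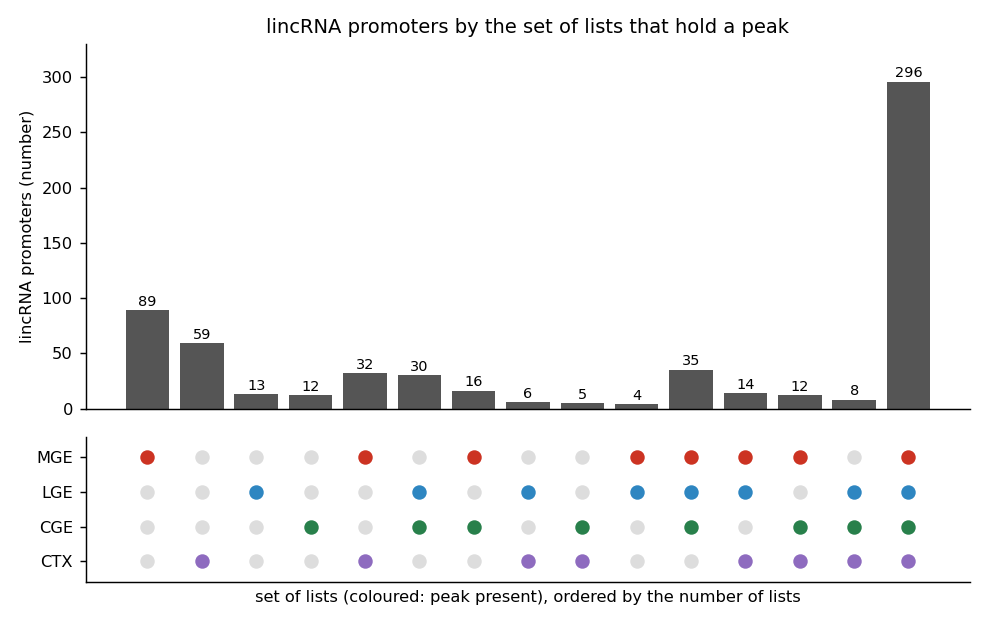
Number of lincRNA promoters (y axis) for each set of lists with a peak (columns; coloured dots below mark the lists in the set), ordered by the number of lists. The set of all 4 lists holds 296 promoters, and MGE alone, with 89, and CTX alone, with 59, are the next most frequent.

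The promoters marked in 1 list alone carried peaks that were short for their list. The 87 peaks at MGE-alone promoters had a median width of 172 bp, and 62 of them had a −log10 q below 2, where q is the peak caller's adjusted p-value. The 59 CTX-alone peaks had a median of 177 bp, and 16 were below 2. The 13 LGE-alone and 12 CGE-alone peaks had medians of 319 and 444 bp, and 8 and 6 of them were below 2. At lincRNA promoters marked in all 4 lists, by contrast, the medians were 649, 1043, 1151 and 678 bp in MGE, LGE, CGE and CTX. The narrowest peaks of the LGE and CGE lists were wider than most of the MGE-alone and CTX-alone peaks, and with peaks under 243 bp left out the counts became 31 for MGE alone, 21 for LGE, 19 for CGE and 28 for CTX. The order of MGE alone and CTX alone was reversed with a −log10 q of at least 2, which left 34 and 60, and with lists of equal length, which left 29 and 49. That threshold falls unequally on the lists, since 6845 of all 25339 MGE peaks and 2520 of all 21442 CTX peaks were below it. For the 35 promoters missing from CTX only, the nearest CTX peak lay at a median distance of 21.7 kb from the 5′ end, and for 25 of them it was over 10 kb away.

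The lincRNAs with roles in nuclear structure, RNA stability and growth were marked nearly throughout. Of 12 such lincRNAs, 11 were marked in all 4 lists, against 5.51% of all lincRNA promoters. Malat1, an abundant RNA of nuclear speckles, had 1203, 1501, 1463 and 1204 marked bases in MGE, LGE, CGE and CTX. Neat1, the scaffold of paraspeckles, had 371, 1739, 1064 and 703 in the same order. The small nucleolar RNA host gene Snhg12 had 1546, 1523, 1643 and 1631, so that its 4 values lay close together, while those of Neat1 did not. Mir17hg, the host of the miR-17 cluster of growth-promoting microRNAs, had 926, 698, 2007 and 664, and Pvt1, which lies beside Myc, had 507, 1372, 2210 and 820. 2900097C17Rik, the mouse form of the RNA Norad that binds Pumilio proteins, had 650, 1352, 1599 and 514. Lncpint had the fewest, with 34, 25, 208 and 452, since most of its peaks began 1793 bp or more downstream of the 5′ end, near the edge of the region. Trp53cor1, also called lincRNA-p21, was the only lincRNA of the 12 without a peak, although its neighbour Cdkn1a, 11.8 kb away, was marked in all 4 lists.

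Of 14 lincRNAs linked to neural development, 9 were marked in all 4 lists and 3 in none, against 5.51% and 88.3% of all lincRNA promoters. Rmst, which is known to act with SOX2 in neurogenesis, had 1254, 2053, 2068 and 1200 marked bases in MGE, LGE, CGE and CTX. C130071C03Rik, which hosts a miR-9 gene and lies 68.5 kb from Mef2c, had 1545, 2216, 2293 and 1984. Both had a peak over the 5′ end in all 4 lists. Mir9-3hg, another miR-9 host, had 1502, 2860, 2862 and 1726 marked bases in MGE, LGE, CGE and CTX. The miR-124 hosts Mir124a-1hg and Mir124-2hg had 1308, 2114, 2059 and 798 and 1351, 1721, 2036 and 1376. The hosts of these neural microRNAs were thus marked in all 4 tissues, at levels from 798 to 2862 bases. Miat, an RNA of neuronal nuclei, was the most even of the group, with 1687, 1705, 1733 and 1727. Gm29260, Gm2694 and Mirg had no peak in any list. Gm2694 lies 10.6 kb from Cbln1, which was itself marked in all 4.

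Paupar departed from this pattern. It is transcribed upstream of Pax6, whose nearest TSS is 7.56 kb away and which was marked in all 4 lists. Paupar had no marked base in MGE or LGE, 1580 in CGE and 757 in CTX. The CGE peak ran from 902 bp upstream to 677 bp downstream of the 5′ end. The CTX peak began 360 bp downstream and had a −log10 q of 1.61, near the bottom of its list. The nearest LGE peak was 7.36 kb away and the nearest MGE peak 13983 bp.

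Among 7 lincRNAs of imprinted loci and X inactivation, 3, Xist, Jpx and Ftx, were marked in all 4 lists, against 5.51% of all lincRNA promoters. Xist, which coats the inactive X chromosome, had 565, 1269, 1269 and 164 marked bases in MGE, LGE, CGE and CTX. Its peaks lay downstream of the annotated 5′ end, beginning 732 bp into the gene in LGE and CGE. Embryos of both sexes were used, and the part of the unknown sex mix of each list in the Xist values was not tested. Ftx, a regulator of Xist, had 656, 1981, 2044 and 678 in the same order. Jpx, another, had 638, 1365, 1561 and 603, and the LGE and CGE values of all 3 were the higher ones, which is also the order of the lists' median widths. Meg3, a maternally expressed imprinted RNA of the Dlk1 domain, had 1462, 2335 and 2534 marked bases in the MGE, LGE and CGE lists and none in that of CTX. Its peaks covered the 5′ end in the 3 eminences, with −log10 q of 6.96, 17.1 and 33.7. In CTX the nearest peak was 227 bp wide and lay 4.99 kb away. Gm26945 and Mirg of the same imprinted domain had no peak in any list. H19, another maternally expressed RNA, was called marked in LGE, with 30 bases, and CGE, with 254. The marked bases lay at the edge of the region. The H19 peaks lay 1.97 kb upstream in LGE and 1.75 kb in CGE, and MGE and CTX had peaks 2.15 and 2.12 kb from the 5′ end, just outside it.

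Of 12 lincRNAs known from other lineages, 8 had no peak in any list and 2 were marked in all 4. Over all lincRNA promoters these shares were 88.3% and 5.51%, so this group was marked more often than lincRNAs in general. The 8 without a peak were Hotair and Halr1 of the Hox clusters, the pluripotency-associated Platr3, Platr4, Platr5 and Platr10, and Mirt1 and Wincr1. Lockd, which lies 8.58 kb from the cell cycle inhibitor gene Cdkn1b, was marked in all 4 lists, with 1417, 3449, 3340 and 1836 bases in MGE, LGE, CGE and CTX. Mir155hg, the host of the immune microRNA miR-155, was marked in all 4 as well, with 888, 1040, 927 and 289. The cardiovascular lincRNAs Bvht and Carmn had weak peaks. Bvht had 435 bases in MGE and 131 in CTX, and Carmn 722 in LGE alone, each with a −log10 q below 2. Of the 5 erythroid and 5 microglial marker genes 1 and 0 were marked in each list, of the 5 endothelial genes 2, and of the 5 mesenchymal and pericyte genes 5, 4, 5 and 5 in MGE, LGE, CGE and CTX. The part of other cell types in these 4 promoters was not tested.

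The lincRNA promoters missing from CTX only and most covered elsewhere were Meg3, E130006D01Rik, B230312C02Rik, C230004F18Rik and A330102I10Rik. E130006D01Rik had 1111 marked bases in MGE, 1910 in LGE and 1575 in CGE. B230312C02Rik had 974, 1486 and 1387. C230004F18Rik, 69.2 kb from Cdr1, had 289, 1592 and 1835, and its nearest CTX peak was 221.9 kb away. A330102I10Rik, 60.7 kb from Sox4, had 782, 1374 and 1458, although Sox4 was itself marked in all 4 lists. The MGE value was the lowest of the 3 eminences in each, as was the median width of all MGE peaks.

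Of the promoters missing from another list, Gm17750 lacked a peak in LGE and had 489 bases in MGE, 1132 in CGE and 510 in CTX. Gm19554 lacked a peak in CGE and had 1054 in MGE, 789 in LGE and 216 in CTX. D830036C21Rik, 2.26 kb from Ercc1, lacked a peak in MGE and had 587 in LGE, 745 in CGE and 650 in CTX. These values lie well below those of Meg3. 4930428N03Rik and 4930542C16Rik, which start next to each other on opposite strands, had identical values, 522 in MGE, 392 in CGE and 471 in CTX, because they share their peaks.

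The most covered promoter marked in CTX alone was D230030E09Rik, with 1123 bases in a peak that ran from 618 bp upstream to 504 bp downstream of the 5′ end. The nearest LGE and CGE peaks were 227.4 kb away and the nearest MGE peak 34.4 kb. The next 4, Gm31727, Gm43522, Gm30146 and B930092H01Rik, had 484 to 645 bases. In MGE alone, Gm47781 had 691 bases over its 5′ end with a −log10 q of 2.65, and 4930520K02Rik had 583 bases with a −log10 q of 10.4. In LGE alone, C230057M02Rik had 864 bases with a −log10 q of 3.31 and Lncenc1, an RNA of embryonic stem cells, 476 with 1.45. In CGE alone, Gm11729 had 1075 bases with a −log10 q of 3.39 and 9030622O22Rik, 5.26 kb from Foxa2, had 1072 with 1.31. The CGE peak at Gm11729 began 652 bp inside the gene, and each other list held a peak within 6.54 kb.

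The promoter with the most marked bases on average over the 4 lists was Gm27032, with 1912, 2890, 2951 and 2349 bases in MGE, LGE, CGE and CTX. Gm3764, 38.6 kb from Mef2d and with 2 CG dinucleotides at its 5′ end, had 3087, 2179, 2056 and 2485, and was the most covered lincRNA promoter in MGE and CTX. E130102H24Rik, C230035I16Rik, Gm27017 and Gm47204 had 1425 to 1965 bases in MGE and 1971 to 2705 in LGE. Gm30731 had 650, 2916, 2893 and 1145, but it starts 2.18 kb from the neural transcription factor gene Pou3f2, and a peak that reached into its region also covered the Pou3f2 TSS.

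**Figure D4:**
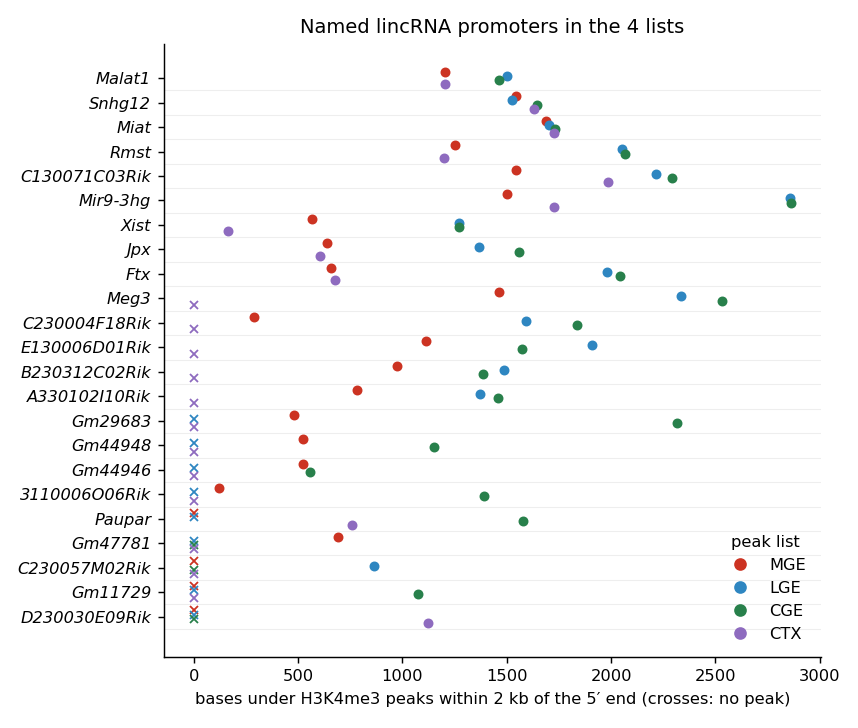
Bases under H3K4me3 peaks within 2 kb of the 5′ end (x axis) for 23 named lincRNA promoters (y axis) in the 4 lists (colours; crosses at 0 mark no peak). Malat1, Snhg12 and Miat have points in all 4 lists above 1200 bases, Meg3 lacks CTX, and Gm29683 lacks LGE and CTX.

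Many lincRNAs lie beside genes of forebrain transcription factors. Of 36 lincRNA promoters whose nearest protein-coding gene was such a factor within 50 kb, 11 (30.6%) were marked in at least 1 list, against 11.7% of all lincRNA promoters and, by distance, 14.6% to 26.3% of those 2 to 50 kb from any protein-coding TSS. A neighbour was called marked where a peak lay within 2 kb of any of its TSSs, a wider net than the single 5′ end used for a lincRNA. The neighbour was marked in all 4 lists for 35 of the 36, against 66.6% of the nearest protein-coding genes of all lincRNAs, and 24 lincRNAs had no peak in any list beside a neighbour marked in all 4. Marked lincRNA and neighbour shared the same lists in 2 cases, Gm26755 with Neurod1 and Gm30731 with Pou3f2, each in all 4. In both cases the lincRNA region overlaps the 2 kb around the neighbour's TSS, so lincRNA and neighbour are not separate observations. The unmarked lincRNAs included Gm11681 and 4933434M16Rik near Sox9, Gm42205 near Sox2 and 2700089I24Rik near Emx2.

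For 5 lincRNAs the nearest protein-coding gene, within 50 kb, was Nr2f2 or Nr2f1, nuclear receptor genes that act in CGE development. Of these 5, 4 were marked in MGE and CGE and 1 in no list. Gm29683, 17.4 kb from Nr2f2, had 478 marked bases in MGE and 2317 in CGE and none in LGE or CTX. Its CGE peak was 3268 bp wide and ran from 316 bp upstream of the 5′ end into the gene. Gm44946, 9.43 kb from Nr2f2, had 524 in MGE and 556 in CGE, and Gm44948, 7.54 kb away, had 524 and 1152. They share the MGE peak and 1 CGE peak and are not separate observations. 3110006O06Rik, 18.8 kb from Nr2f1, had 122 bases in MGE and 1391 in CGE, with the nearest LGE and CTX peaks 7.68 kb away. Its MGE peak had a −log10 q of 1.88 and lay 1.46 kb downstream of the 5′ end, whereas the CGE peak covered the 5′ end. These 4 lincRNAs were among the 16 marked in MGE and CGE alone, which are 0.298% of all lincRNA promoters. Gm28258, 21.7 kb from Nr2f2, had no peak. Around its most covered TSS Nr2f2 had 1963, 4001, 4001 and 1424 marked bases in MGE, LGE, CGE and CTX, so the neighbour was marked in LGE and CTX as well.

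Beside other factors, Gm26755 lies 2.77 kb from the proneural gene Neurod1 and had 205, 1580, 1578 and 435 bases in MGE, LGE, CGE and CTX. Neurod1 itself had 287, 1157, 1231 and 327. LGE and CGE were higher at both, again as over all peaks. Gm26872, near Barhl2, was marked in LGE with 366 bases and in CTX with 342. A330048O09Rik, near the inhibitor of differentiation gene Id4, had 124 in MGE, 504 in LGE and 339 in CTX. Gm28643, near Zeb2, had 319 in LGE alone.

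Marked lincRNA promoters lay nearer to protein-coding genes than unmarked ones. The median distance to the nearest protein-coding TSS was 32009.5 bp for those marked in all 4 lists and 82251.5 bp for those marked in none. Of the 4740 marked in none 547 lie on chromosome Y, against 0 of the 296 marked in all 4. Of 228 lincRNAs at 2 to 5 kb, 26.3% (21 to 32.4%) were marked in at least 1 list, and of 1250 beyond 200 kb 4.4% (3.4 to 5.68%). The steps between were 23.3% at 5 to 10 kb, 14.6% at 10 to 50 kb and 10.6% at 50 to 200 kb. The decline ran through all distances. In the nearest step the lincRNA region can overlap the 2 kb around the neighbour's TSS, so a peak of the neighbour can count for the lincRNA. The nearest protein-coding gene was marked at any of its TSSs for 80.7% of the marked lincRNAs in MGE and for 67.7% of the unmarked ones. The figures were 81.0% and 68.2% in LGE, 82.1% and 68.7% in CGE and 80.3% and 67.1% in CTX. The transcript with the most exons had a median of 2 exons for lincRNAs marked in all 4 lists and 3 for those marked in none.

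The marked lincRNA promoters were also richer in CG dinucleotides. In the 300 bases at the 5′ end, lincRNAs marked in no list had a median of 3 CG dinucleotides and those marked in all 4 had 9.5. Those marked in 1, 2 or 3 lists had 5 each, and protein-coding promoters marked in all 4 had 20. Of 581 lincRNA promoters without a CG dinucleotide 3.1% (1.97 to 4.84%) were marked in at least 1 list. The share was 10.9% with 3 to 5, 31.4% with 10 to 14 and 68.9% (61.5 to 75.4%) of 167 with 15 or more. At each step from 1 CG dinucleotide up, protein-coding promoters of the same CG number were marked more often, with 25.8% at 3 to 5, 82.8% at 10 to 14 and 95.4% at 15 or more. Bases that the reference marks as repeats made up 33.3% of the 300 bases in unmarked lincRNAs on average and 13.4% in those marked in all 4.

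**Figure D5:**
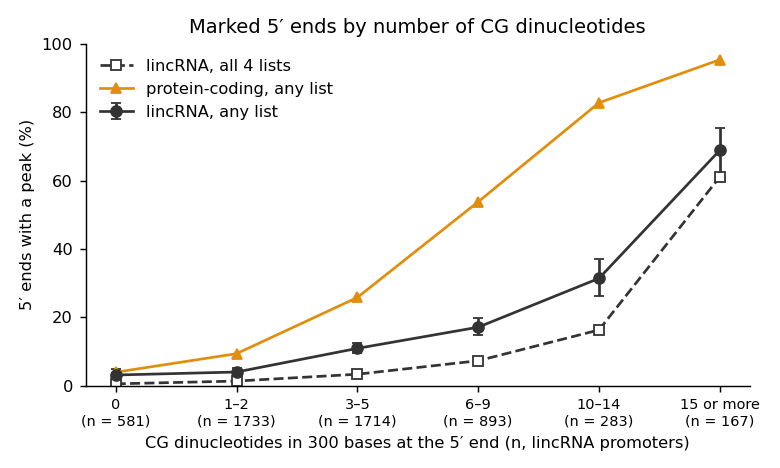
Share of 5′ ends with a peak (y axis, %) by the number of CG dinucleotides in the 300 bases at the 5′ end (x axis, with the number of lincRNA promoters) for lincRNAs marked in any list (filled, Wilson 95% intervals) or in all 4 (open) and for protein-coding genes marked in any list (triangles). The lincRNA share rises from 3.1% to 68.9%, and that of protein-coding genes reaches 95.4%.

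Short sequence motifs were searched by their letters on both strands of the same 300 bases. GGGCGG, the core of the SP1 motif, was in 39.2% of the lincRNA promoters marked in all 4 lists, 5.46% of those marked in none and 22.7% of all annotated promoters. CGGAAG, the core of ETS motifs, was in 20.9%, 6.03% and 12.0%. ATGGCG, part of the YY1 motif, was in 8.45%, 4.18% and 7.49%. All 3 contain a CG dinucleotide and can overlap each other, so they are not independent of the CG counts above. The A and T rich motifs went the other way: TATAAA was in 8.11% of those marked in all 4, 16.9% of those marked in none and 17.1% of all, and TAATTA, the core of many homeodomain motifs, in 4.05%, 12.2% and 7.59%. CCAAT was in 35.5%, 43.6% and 38.4%. A match describes the letters and not a bound site.

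The lincRNAs were unevenly marked across chromosomes. Chromosome Y carries 548 of the 5371 lincRNA promoters, and 1 of these had a peak, in CGE. By the study's methods embryos of both sexes were used. The proportion of each sex in a list is not known, and its part in the values of the sex chromosomes was not tested. Without chromosome Y, 10.3, 8.42, 8.56 and 8.96% of 4823 promoters were marked in MGE, LGE, CGE and CTX. On chromosome X, 14 of 92 lincRNA promoters were marked in at least 1 list, which is 15.2% (9.29 to 23.9%). Among autosomes the share was highest on chromosome 17, with 44 of 208 or 21.2%, and lowest on chromosome 1, with 23 of 300 or 7.67%.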

How the data were processed

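Per the labels and the study's methods, the authors aligned paired reads with Bowtie2 to GRCm38, removed blacklisted regions and Picard duplicates, merged the replicates and called broad peaks. The peak caller's threshold and any control are not given in the sources used here. The deposited lists give peak starts and ends, the authors' fold (a ratio to the estimated background) and the authors' −log10 q. Fold and −log10 q were described within a list only. In the alternatives, however, the same −log10 q of at least 2 was applied to every list. The lists' −log10 p and scores were not used.

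Genes came from GENCODE M21. The 4 peak lists held 81817 peaks. Python 3.11.15 (pandas 2.3.3, numpy 2.4.6) was used for overlaps, scipy 1.17.1 for Wilson intervals and matplotlib 3.10.9 for figures. A minimum of 1 bp counted as overlap. No peak or gene lay beyond a chromosome end of the reference. The computations were tested on simulated data and matched a direct count in 200 of 200 runs.

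The lincRNA promoters and the gene lists were chosen with earlier results of these data known. The genes named were those of the 4 lincRNA lists and the 10 most covered among those marked in all 4. For each tissue, the 5 marked in that list alone and the 5 missing from it only with the most marked bases were added. So were those whose nearest protein-coding gene was a listed transcription factor gene within 50 kb. Of the 141 symbols in the 4 lists 42 were lincRNA promoters as defined here, 7 were left out for distance, 51 had another noncoding type, 5 were protein-coding and 36 were not found under that symbol. No test between tissues was made, since each had 1 merged list. The alternatives covered peak threshold, list length, window, distance rule, overlap and chromosomes.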

Additional observations from a re-analysis of the deposited data

How the results depend on the processing

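Of 78 alternative values, 45 stayed within the Wilson interval of the share, or within 1.5 times of the count, and 33 moved further. Shares are given for MGE, LGE, CGE and CTX in this order. With 1 kb either side they were 7.39, 6.33, 6.63 and 6.54%, with 5 kb either side 14.49, 11.1, 11.3 and 12.4%, and with 2 kb upstream only 6.39, 5.47, 6.0 and 5.68%. On autosomes only they were 10.2, 8.33, 8.48 and 8.88%, and without chromosome Y, chosen after seeing the data, 10.3, 8.42, 8.56 and 8.96%. The shares of MGE and CTX moved, and those of LGE and CGE did not, with a −log10 q of at least 2 (6.98 and 7.24%), with every list limited to the 17284 peaks of highest fold (6.44 and 6.7%), with at least 200 bp covered (7.21 and 6.46%) and with peaks under 243 bp left out, also chosen after seeing the data (6.98 and 6.35%). The number marked in all 4 lists was 464 with 5 kb either side and stayed within 1.5 times of 296 otherwise. The number marked in exactly 1 was 283 with 5 kb either side, 115 upstream only, 98 with at least 200 bp and 99 without peaks under 243 bp. MGE alone ranged from 29 to 155 and CTX alone from 28 to 96 over the alternatives run, and CTX alone exceeded MGE alone with a −log10 q of at least 2 (60 against 34) and with lists of equal length (49 against 29). The cause was not tested, beyond what the construction of an alternative shows.

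No paired analysis was possible because each list merges its replicates. For the same reason leaving out a replicate was not possible. The lists give no reads per peak, and the unequal sequencing depths of the tissues could not be modelled, so a missing peak sets no limit on the mark.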

Other observations

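Of the listed noncoding genes that fell outside the lincRNA promoters, 58 were found in the annotation, 35 of them marked in all 4 lists and 13 in none, against 28.1% of all annotated 5′ ends marked in all 4. Of the 58, 29 start within 2 kb of a protein-coding TSS, and 20 of these were marked in all 4, against 15 of the 29 farther away. Several of them, chosen here after their values were seen, had no peak in CTX. Dlx6os1, which overlaps the Dlx5 and Dlx6 locus and includes the Evf2 transcript, had 684, 810, 1585 and 0 marked bases in MGE, LGE, CGE and CTX. Dlx1as had 426, 313, 832 and 0. Six3os1 had 354, 1195, 1094 and 0, and B230323A14Rik had 126, 1602, 1393 and 0. Sox2ot, whose transcription unit contains the Sox2 gene, had 145, 965, 1874 and 0. Nkx2-2os had 257 bases in LGE and 603 in CGE and none in MGE or CTX.

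In the other direction, Pax6os1 had no marked base in MGE and 1806, 1810 and 1818 in LGE, CGE and CTX. It starts 1395 bp from a protein-coding TSS, so its peaks cannot be assigned to it or to the protein-coding gene. Pantr1, a lincRNA beside Pou3f3 that the distance rule left out, had 1693, 2377, 2477 and 3348 in MGE, LGE, CGE and CTX, its highest value. Pantr2, which lies farther away, had 1499, 2361, 2477 and 1628. Of imprinted transcripts, Kcnq1ot1, Airn and Nespas were marked in all 4 lists, with 1648, 1443 and 1355 bases in MGE, while Rian and Snhg14 had no peak. Tsix, the antisense partner of Xist, had none either. These values have no replicate error, and differences between the lists were not tested.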
